A study of Mus musculus with 16 samples.

Results

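A set of 47 genes for the metabolism of drugs, other foreign compounds and steroids was compared across 4 groups of mouse small intestinal organoids. The set was chosen by name, from the cytochrome P450 enzymes, their receptors and electron donor, the conjugating enzymes, the dehydrogenases and reductases, the hydrolases and the efflux transporters. It made up 47 of the 49585 genes in the count table. Earlier results of these data were known when it was chosen, so that its counts beside those of all genes are a description. RNA sequencing of 16 cultures addressed how loss of the autophagy gene *Atg16l1* changes the response of the intestinal epithelium to interleukin 22 (IL-22), a cytokine of the IL-10 family. Organoids were grown from crypts of *Atg16l1* fl/fl mice without Cre, written as WT in the labels, and of *Atg16l1* ΔIEC mice, written as KO, in which Cre driven by the villin promoter deletes the floxed gene in intestinal epithelial cells. Both groups carried the floxed alleles, had been backcrossed to C57BL/6, and came from mice of 8 to 12 weeks with littermates as controls. Each genotype was cultured untreated or with recombinant murine IL-22 at 10 ng/ml for 24 h. Each of the 4 groups held 4 cultures, and the culture names in the labels number 2 organoid lines per genotype, with 2 cultures of each line under each treatment. The cultures of a line are repeats of 1 source and the lines differ between the genotypes, so that differences between genotypes rest on 2 lines against 2. Organoids hold epithelium alone, without liver, immune cells or luminal microbes.

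Foreign compounds are classically cleared in successive steps. Cytochrome P450 and flavin monooxygenases add oxygen to a compound, dehydrogenases, reductases and esterases change its alcohol, aldehyde, ketone and ester groups, transferases attach glucuronic acid or sulfate, and transporters pump the product out of the cell. Receptors such as the aryl hydrocarbon receptor and the pregnane X receptor sense such compounds and switch on many of these genes, and in the small intestine the enzymes are found chiefly in absorptive enterocytes, where they limit how much of an ingested drug enters the blood.

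The cultures held between 2135000 and 5574860 counts on genes, with a median of 3499276.5. Levels are given as CPM on library sizes scaled by TMM, fold changes with IL-22 as log2FC, and in each list of 4 values the first pair comes from line 1 and the second pair from line 2. The targeted gene followed its labels. *Atg16l1* was at 38.9, 31.6, 41.3 and 49.2 CPM in untreated *Atg16l1* fl/fl organoids, at 39.2, 39.96, 51.8 and 48.8 CPM with IL-22, at 2.59, 2.71, 1.21 and 4.15 CPM in untreated *Atg16l1* ΔIEC organoids and at 0.810, 5.96, 0.302 and 0.289 CPM with IL-22. Every *Atg16l1* ΔIEC culture lay far below every *Atg16l1* fl/fl culture. The log2 difference between genotypes was -3.90 ± 0.37 (SE, adjusted p 1.27e-06) untreated and -4.51 ± 0.38 (SE, adjusted p 2.25e-07) with IL-22. Without treated *Atg16l1* ΔIEC culture 2 the latter difference was -6.59, without *Atg16l1* ΔIEC line 1 it was -7.10, and without *Atg16l1* ΔIEC line 2 it was -3.57. *Reg3b*, an antimicrobial lectin and known IL-22 target, was at 13.4, 11.2, 10.9 and 15.5 CPM in untreated *Atg16l1* fl/fl organoids and at 18333, 18179, 19999.9 and 20131 CPM with IL-22. In *Atg16l1* ΔIEC organoids *Reg3b* was at 10.6, 12.3, 8.44 and 13.3 CPM untreated and at 31959, 29485, 21162 and 24691 CPM with IL-22, and *Reg3g* and *Socs3* were likewise higher in every treated culture than in any untreated culture of its genotype, so that all 16 cultures matched their treatment labels. Of 8 epithelial markers none was at 0, and the most abundant, *Krt8*, was at 2466 CPM on average in untreated *Atg16l1* fl/fl organoids. The immune markers *Cd3e* and *Itgax* were at 0 counts in all cultures, and 11 immune markers summed to 9.64, 11.2, 13.1 and 16.6 CPM in untreated *Atg16l1* fl/fl organoids, most of it *Csf1r*. The 11 stromal and endothelial markers summed to 3.21, 3.06, 7.25 and 4.82 CPM there. Of 9 hepatocyte markers *Ahsg*, *Fga* and *Fgb* were at 0 counts in all cultures, but the list summed to 44.7, 33.9, 74.8 and 52.97 CPM in untreated *Atg16l1* fl/fl and 167, 131, 106 and 85.6 CPM in untreated *Atg16l1* ΔIEC organoids, most of it *Cyp2c29*. In both genotypes 2 of its 3 tested genes fell and 1, *Tat*, rose with IL-22.

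Most of the set was lower with IL-22 in both genotypes. A fit over 12559 genes tested 46 of the 47 members, and a member is said to rise or fall where its p, adjusted over all tested genes, was under 0.01. These p-values measure only the spread between these cultures, which come from 2 lines per genotype. With IL-22, 33 members fell and 1 rose in *Atg16l1* fl/fl organoids, where 10.2% of all tested genes fell and 10.6% rose. In *Atg16l1* ΔIEC organoids 28 members fell and 2 rose, where 7.65% of all tested genes fell and 9.83% rose. The median log2 fold change of the members was -0.92 in *Atg16l1* fl/fl organoids, where that of all tested genes was -0.05, and -0.92 in *Atg16l1* ΔIEC organoids, where that of all tested genes was -0.01. The same 27 members fell in both genotypes, which was 81.8% of those that fell in *Atg16l1* fl/fl and 96.4% of those that fell in *Atg16l1* ΔIEC organoids. The same shares over all tested genes were not tallied, so this overlap cannot be called particular to the set. Counted by line, 37 of the 46 members had a lower mean with IL-22 in all 4 lines, as had 29.3% of all tested genes, and 2 had a higher mean in all 4. When the cultures of each line were summed, which left 2 values in each group, 11 members fell in *Atg16l1* fl/fl and 17 in *Atg16l1* ΔIEC organoids, where 4.29% and 5.02% of all tested genes passed in either direction. With the line as a block in the fit, 38 fell and 1 rose in *Atg16l1* fl/fl, and 34 fell and 3 rose in *Atg16l1* ΔIEC organoids. The block fit still counts the 2 cultures of a line under a treatment as separate values, so its p-values do not rest on lines alone. Of all 12559 genes that fit had 1957 lower and 1880 higher in *Atg16l1* fl/fl, and 1471 lower and 1727 higher in *Atg16l1* ΔIEC organoids. None of the member calls that the block added passed with the cultures of each line summed.

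Together the 47 members took 1.09%, 1.11%, 1.01% and 1.01% of the counts in untreated *Atg16l1* fl/fl cultures and 0.602%, 0.590%, 0.568% and 0.540% with IL-22. Their share was 1.03%, 0.999%, 0.908% and 0.873% in untreated *Atg16l1* ΔIEC cultures and 0.570%, 0.569%, 0.473% and 0.488% with IL-22. Untreated and IL-22–treated cultures did not overlap in either genotype. Markers of several cell types moved alongside. Of 26 enterocyte markers, 13 fell and 3 rose with IL-22 in *Atg16l1* fl/fl organoids, and 10 fell and 2 rose in *Atg16l1* ΔIEC organoids. Their summed level was 7951, 7219.9, 7344 and 6625 CPM in untreated *Atg16l1* fl/fl organoids and 4655, 5098, 4290.5 and 4502 CPM with IL-22. In *Atg16l1* ΔIEC organoids the sum was 7593, 7646, 7093 and 6291 CPM untreated and 5698, 5230.0, 4219 and 4168 CPM with IL-22. *Alpi* was the most abundant of these markers in untreated cultures and *Mgam* in IL-22–treated cultures, and none of the 26 was at 0. Neither *Alpi* nor *Mgam* passed the test with IL-22 in either genotype. Against the 13 and 10 that fell, *Krt20* rose, with log2FCs of 1.54 (adjusted p 1.88e-06) in *Atg16l1* fl/fl and 1.15 (adjusted p 4.70e-05) in *Atg16l1* ΔIEC organoids. *Cdhr5* also rose in both genotypes and *Nt5e* in *Atg16l1* fl/fl organoids. Of 14 proliferation markers 11 fell in *Atg16l1* fl/fl and 5 in *Atg16l1* ΔIEC organoids, and of 12 stem and crypt markers, led by *Slc12a2*, 3 fell and 1 rose in *Atg16l1* fl/fl and 5 fell and 1 rose in *Atg16l1* ΔIEC organoids. Of 10 Paneth cell markers 3 rose in each genotype, of 10 goblet cell markers 3 rose and 2 fell in *Atg16l1* fl/fl and 2 rose and 3 fell in *Atg16l1* ΔIEC organoids, and of 8 epithelial markers 6 rose in *Atg16l1* fl/fl and 2 in *Atg16l1* ΔIEC organoids. The stem and crypt markers summed to 2352, 2531, 2728 and 2519 CPM in untreated *Atg16l1* fl/fl organoids and 2020.1, 1933, 1776 and 1765 CPM with IL-22, and to 3087, 2862, 3065 and 3182 CPM in untreated *Atg16l1* ΔIEC organoids and 2154, 1809, 2037 and 1937 CPM with IL-22. The part of these markers in the members' levels was not tested, and in bulk RNA fewer enterocytes and less RNA per enterocyte cannot be told apart.

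**Figure D1:**
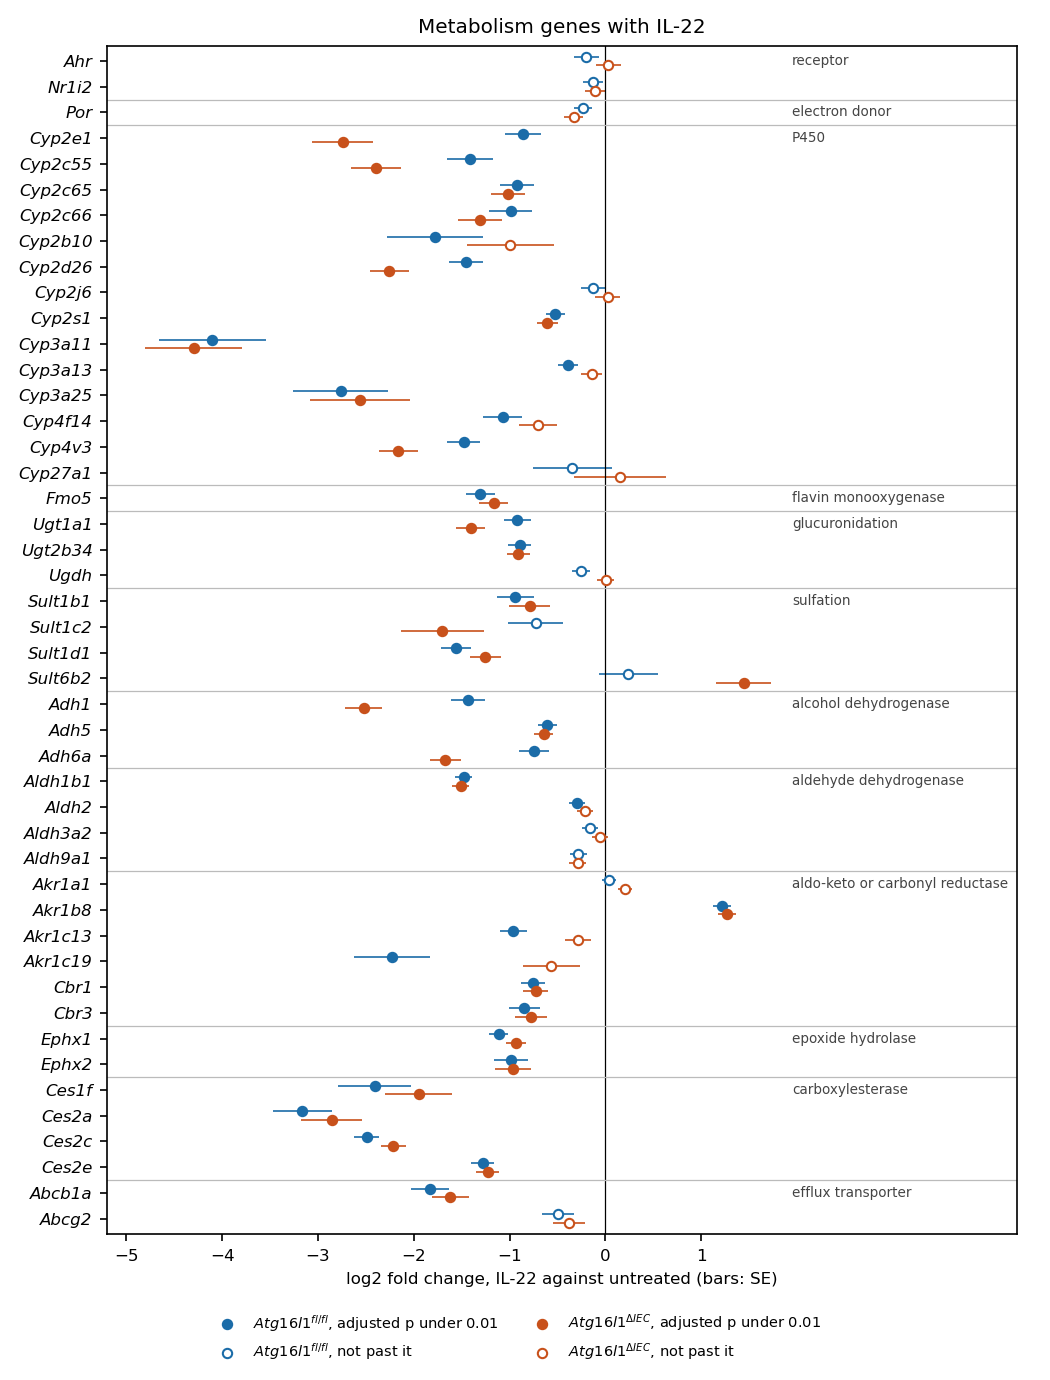
Log2 fold change with IL-22 (x axis) for the 46 tested members (y axis, grouped by role) in *Atg16l1* fl/fl and *Atg16l1* ΔIEC organoids, with bars for the SE and filled points where the adjusted p was under 0.01. All filled points lie below 0 apart from *Akr1b8* in both genotypes and *Sult6b2* in *Atg16l1* ΔIEC organoids.

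Between genes, levels were compared as mean CPM per kilobase of annotated exons, with the SD over 4 cultures. In untreated *Atg16l1* fl/fl organoids the highest level per kilobase was that of *Adh1*, at 425 ± 108. *Ugt2b34* followed at 313 ± 54.9, then *Adh6a* at 263 ± 44.4, *Aldh1b1* at 256 ± 15.4 and *Akr1a1* at 215 ± 18.9 CPM per kilobase. The SDs of these neighbours overlapped for *Adh1* and *Ugt2b34*, for *Ugt2b34* and *Adh6a* and for *Adh6a* and *Aldh1b1*. At the other end stood *Cyp27a1*, at 2.11 ± 1.17, and *Cyp1a1*, at 0.228 ± 0.279 CPM per kilobase. With IL-22, *Akr1a1* ranked highest of the 47 in both genotypes, at 222 ± 15.5 CPM per kilobase in *Atg16l1* fl/fl and 251 ± 12.2 in *Atg16l1* ΔIEC organoids. *Akr1b8* moved from rank 24 to rank 5 in *Atg16l1* fl/fl and from rank 19 to rank 2 in *Atg16l1* ΔIEC organoids, while *Adh1* moved from rank 1 to rank 3 in *Atg16l1* fl/fl and from rank 1 to rank 14 in *Atg16l1* ΔIEC organoids. On the length of the longest transcript alone, *Akr1b8* ranked 7 and *Adh1* ranked 2 in treated *Atg16l1* fl/fl organoids, and *Akr1b8* ranked 2 and *Adh1* ranked 7 in treated *Atg16l1* ΔIEC organoids.

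The 2 receptors in the set did not pass the test with IL-22. *Ahr*, which encodes the aryl hydrocarbon receptor, was at 18.4, 23.7, 19.04 and 20.9 CPM in untreated *Atg16l1* fl/fl organoids, at 17.03, 17.8, 15.96 and 21.6 CPM with IL-22, at 22.6, 18.2, 22.9 and 22.8 CPM in untreated *Atg16l1* ΔIEC organoids and at 20.7, 22.2, 23.3 and 21.7 CPM with IL-22. The groups overlapped in both genotypes, and the log2FC was -0.20 ± 0.13 (SE, adjusted p 0.265) in *Atg16l1* fl/fl and 0.03 ± 0.13 (SE, adjusted p 0.891) in *Atg16l1* ΔIEC organoids. *Nr1i2*, which encodes the pregnane X receptor, was at 61.1, 65.3, 53.04 and 65.8 CPM in untreated *Atg16l1* fl/fl organoids, at 53.8, 47.2, 61.95 and 62.6 CPM with IL-22, at 55.9, 61.03, 51.1 and 58.6 CPM in untreated *Atg16l1* ΔIEC organoids and at 59.1, 53.7, 53.2 and 45.4 CPM with IL-22. Its groups overlapped as well, with a log2FC of -0.13 ± 0.11 (SE, adjusted p 0.386) in *Atg16l1* fl/fl and -0.11 ± 0.11 (SE, adjusted p 0.503) in *Atg16l1* ΔIEC organoids. *Por*, which encodes the reductase that passes electrons to microsomal P450 enzymes, was at 387, 389, 333 and 355 CPM in untreated *Atg16l1* fl/fl organoids, at 306, 312, 316 and 313 CPM with IL-22, at 309, 349, 345 and 343 CPM in untreated *Atg16l1* ΔIEC organoids and at 213, 249, 309.8 and 298 CPM with IL-22. All IL-22–treated *Atg16l1* fl/fl cultures were below the untreated ones, whereas 1 treated *Atg16l1* ΔIEC culture reached the lowest untreated one. The log2FC of *Por* was -0.23 ± 0.09 (SE, adjusted p 0.0671) in *Atg16l1* fl/fl and -0.33 ± 0.09 (SE, adjusted p 0.0126) in *Atg16l1* ΔIEC organoids, and with the line as a block the adjusted p was 0.00920 and 0.000276. *Por* passed in neither genotype with the cultures of each line summed. In *Atg16l1* ΔIEC organoids *Por* had an adjusted p under 0.01 in 7 of 28 alternative settings, among them DESeq2 (adjusted p 0.00498), limma-voom (0.00134), no filter (0.00743) and leaving out treated culture 3 (0.00345) or 4 (0.00928). Without *Atg16l1* ΔIEC line 2 the log2FC of *Por* in *Atg16l1* ΔIEC organoids was -0.51 (adjusted p 0.00531) and without line 1 it was -0.18, and in *Atg16l1* fl/fl organoids it was -0.33 without line 2 and -0.10 without line 1.

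Of 17 other receptors and partners tested, 2 rose and 3 fell with IL-22 in *Atg16l1* fl/fl organoids, and 1 rose and 3 fell in *Atg16l1* ΔIEC organoids. *Nr1h4*, the bile acid receptor, rose by 0.56 (adjusted p 0.00130) on the log2 scale in *Atg16l1* fl/fl and by 1.35 (adjusted p 7.92e-07) in *Atg16l1* ΔIEC organoids, and *Hnf4a* by 0.31 (adjusted p 0.000611) in *Atg16l1* fl/fl organoids. *Ppara* had a log2FC of -1.24 (adjusted p 0.000240) in *Atg16l1* fl/fl and -1.30 (adjusted p 0.000121) in *Atg16l1* ΔIEC organoids. For *Vdr*, the vitamin D receptor, it was -0.74 (adjusted p 2.13e-08) and -1.03 (adjusted p 1.76e-10), and for *Nr5a2* -0.73 (adjusted p 0.00403) and -0.68 (adjusted p 0.00765). Among 10 genes of electron transfer to P450 and of heme metabolism, 2 rose and 3 fell in *Atg16l1* fl/fl organoids, and 1 rose and 3 fell in *Atg16l1* ΔIEC organoids. *Hmox1*, which breaks heme down, rose by 1.61 (adjusted p 7.51e-06) and 1.64 (adjusted p 1.20e-05), and *Alas1*, which starts heme synthesis, by 0.37 (adjusted p 0.00246) in *Atg16l1* fl/fl organoids. Cytochrome b5 (*Cyb5a*) had a log2FC of -0.67 (adjusted p 0.000433) in *Atg16l1* fl/fl and -0.52 (adjusted p 0.00449) in *Atg16l1* ΔIEC organoids, its reductase *Cyb5r3* -0.66 (adjusted p 2.00e-05) and -0.56 (adjusted p 0.000125), and *Pgrmc2* -0.36 (adjusted p 0.00415) and -0.48 (adjusted p 0.000401).

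Among the 15 P450 genes, *Cyp1a1*, the classic target of the aryl hydrocarbon receptor, had too few counts to be tested in the fit. *Cyp1a1* was at 1.75, 0.255, 0 and 0.535 CPM in untreated *Atg16l1* fl/fl organoids, at 0, 0.701, 0 and 0 CPM with IL-22, at 0.943, 0.738, 2.01 and 3.32 CPM in untreated *Atg16l1* ΔIEC organoids and at 1.22, 0, 1.81 and 0.289 CPM with IL-22. All groups overlapped between treatments and between genotypes, and no fold is given because no culture held more than 8 counts. A count of 0 allows up to 3 counts. A two-sided exact permutation test over cultures gave p = 0.371 for IL-22 in *Atg16l1* fl/fl organoids, and the smallest p it can give with 4 against 4 is 0.0286. In *Atg16l1* ΔIEC organoids the same exact test gave p = 0.257. Of 3 tested AHR target genes outside the set, *Nqo1* fell with IL-22 in *Atg16l1* fl/fl organoids, with a log2FC of -0.62 (adjusted p 0.000252). None of the 3 passed the edgeR test in *Atg16l1* ΔIEC organoids, where 2 had an unadjusted p under 0.05, as had 4827 of all 12559 tested genes.

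Of the 14 P450 genes tested, 12 fell in *Atg16l1* fl/fl organoids and 9 in *Atg16l1* ΔIEC organoids, and none rose. The largest fall among them in both genotypes was that of *Cyp3a11*. *Cyp3a11*, whose product hydroxylates many drugs and steroids, was at 18.4, 10.2, 23.6 and 10.4 CPM in untreated *Atg16l1* fl/fl organoids, at 1.58, 0, 0.939 and 1.20 CPM with IL-22, at 38.4, 22.9, 18.5 and 19.5 CPM in untreated *Atg16l1* ΔIEC organoids and at 2.03, 2.84, 0.302 and 0 CPM with IL-22. Every treated culture was below every untreated one, and the treated values rested on 4, 0, 5 and 4 counts in *Atg16l1* fl/fl and 5, 10, 1 and 0 counts in *Atg16l1* ΔIEC organoids. The log2FC was -4.10 ± 0.56 (SE, adjusted p 1.54e-05) in *Atg16l1* fl/fl and -4.30 ± 0.51 (SE, adjusted p 2.55e-06) in *Atg16l1* ΔIEC organoids, the latter -6.69 without *Atg16l1* ΔIEC line 1 and -3.60 without line 2. *Cyp3a25*, its neighbour, was at 20.2, 15.1, 52.6 and 44.7 CPM in untreated *Atg16l1* fl/fl organoids, at 3.17, 3.74, 4.88 and 6.89 CPM with IL-22, at 43.1, 29.5, 13.3 and 16.6 CPM in untreated *Atg16l1* ΔIEC organoids and at 9.32, 7.10, 0.907 and 1.74 CPM with IL-22. Treated and untreated cultures stood apart in both genotypes, and among untreated cultures line 2 was the higher line in *Atg16l1* fl/fl and line 1 the higher line in *Atg16l1* ΔIEC organoids. The log2FC of *Cyp3a25* was -2.76 ± 0.49 (SE, adjusted p 0.000251) in *Atg16l1* fl/fl and -2.56 ± 0.52 (SE, adjusted p 0.000925) in *Atg16l1* ΔIEC organoids, and without *Atg16l1* fl/fl line 2 it was -2.30 (adjusted p 0.0249). *Cyp3a13*, the third member of the family in the set, fell in *Atg16l1* fl/fl organoids, by 0.39 on the log2 scale (adjusted p 0.00801), and did not pass the test in *Atg16l1* ΔIEC organoids, where its log2FC was -0.14 (adjusted p 0.347). Leaving out *Atg16l1* fl/fl line 1 or line 2 raised that adjusted p of *Cyp3a13* to 0.177 or 0.0514. The call passed in 14 of 28 alternative settings, with an adjusted p of 0.0116 with RLE scaling and up to 0.0418 with 1 culture left out.

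Members of the Cyp2c family in the set, which oxidize polyunsaturated fatty acids, all fell in both genotypes. *Cyp2c55* was at 372, 386, 376 and 347 CPM in untreated *Atg16l1* fl/fl organoids, at 144, 136, 147 and 130.0 CPM with IL-22, at 288, 296, 216 and 203 CPM in untreated *Atg16l1* ΔIEC organoids and at 90.3, 55.7, 28.1 and 21.99 CPM with IL-22. No treated culture reached an untreated one, and the lowest values of all were those of treated *Atg16l1* ΔIEC line 2. With IL-22 the log2FC was -1.41 ± 0.24 (SE, adjusted p 0.000136) in *Atg16l1* fl/fl and -2.40 ± 0.26 (SE, adjusted p 9.04e-07) in *Atg16l1* ΔIEC organoids. For *Cyp2c65* it was -0.92 (adjusted p 0.000491) and -1.01 (adjusted p 0.000240), and for *Cyp2c66* -0.99 (adjusted p 0.00218) and -1.31 (adjusted p 0.000253). Leaving out *Atg16l1* fl/fl line 1 or line 2 raised the adjusted p in *Atg16l1* fl/fl organoids to 0.0188 or 0.0119 for *Cyp2c65* and to 0.0303 or 0.0659 for *Cyp2c66*. *Cyp2e1*, which encodes the enzyme that oxidizes ethanol and small solvents, was at 26.01, 28.6, 20.4 and 21.7 CPM in untreated *Atg16l1* fl/fl organoids, at 10.7, 16.1, 14.8 and 10.8 CPM with IL-22, at 9.90, 11.1, 6.43 and 10.8 CPM in untreated *Atg16l1* ΔIEC organoids and at 2.43, 1.70, 1.21 and 0.579 CPM with IL-22. Treated cultures were below the untreated cultures of their genotype, untreated *Atg16l1* ΔIEC cultures were as low as treated *Atg16l1* fl/fl cultures, and the treated *Atg16l1* ΔIEC values rested on 6, 6, 4 and 2 counts. Its log2FC with IL-22 was -0.86 ± 0.19 (SE, adjusted p 0.00148) in *Atg16l1* fl/fl and -2.74 ± 0.32 (SE, adjusted p 2.34e-06) in *Atg16l1* ΔIEC organoids. Without *Atg16l1* fl/fl line 1 or line 2 the change in *Atg16l1* fl/fl organoids was -0.67 (adjusted p 0.0754) or -0.98 (adjusted p 0.0126).

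The other 7 P450 genes were mixed. *Cyp2s1*, an extrahepatic P450, was at 411, 411, 355 and 404 CPM in untreated *Atg16l1* fl/fl organoids, at 278, 254, 312 and 260.4 CPM with IL-22, at 206, 235, 234 and 239.7 CPM in untreated *Atg16l1* ΔIEC organoids and at 119, 149, 186 and 145 CPM with IL-22. Both treatment and genotype separated the cultures, with all treated cultures below the untreated ones of their genotype. In the fit the log2FC was -0.52 ± 0.10 (SE, adjusted p 0.000651) in *Atg16l1* fl/fl and -0.60 ± 0.11 (SE, adjusted p 0.000229) in *Atg16l1* ΔIEC organoids, and without line 1 of the genotype the adjusted p was 0.0733 and 0.0116. *Cyp2d26* had a log2FC of -1.46 (adjusted p 4.52e-06) in *Atg16l1* fl/fl and -2.26 (adjusted p 7.56e-08) in *Atg16l1* ΔIEC organoids. For *Cyp4v3*, a fatty acid hydroxylase, it was -1.48 (adjusted p 2.48e-06) and -2.16 (adjusted p 1.35e-07). *Cyp4f14*, which inactivates leukotrienes, fell in *Atg16l1* fl/fl organoids, with a log2FC of -1.07 (adjusted p 0.000436), and had one of -0.70 (adjusted p 0.0130) in *Atg16l1* ΔIEC organoids, where the adjusted p was 2.46e-07 with the line as a block. *Cyp4f14* passed in neither genotype with the cultures of each line summed. Without *Atg16l1* fl/fl line 1 or line 2 the adjusted p of *Cyp4f14* in *Atg16l1* fl/fl organoids was 0.0125 or 0.0163. *Cyp2b10*, a target of the receptor CAR, had a log2FC of -1.78 (adjusted p 0.00964) in *Atg16l1* fl/fl and -0.99 (adjusted p 0.116) in *Atg16l1* ΔIEC organoids, and with the block the adjusted p was 6.29e-08 and 2.57e-05. The 2 *Atg16l1* ΔIEC lines differed, with a mean log2 change of -0.51 in line 1 and -2.30 in line 2. Leaving out single cultures raised the adjusted p of *Cyp2b10* in *Atg16l1* fl/fl organoids past 0.01 for 10 of the 16 cultures, up to 0.0353 without untreated *Atg16l1* fl/fl culture 3, and it was 0.0357 without line 1 and 0.183 without line 2. It was 0.0104 with RLE scaling, 0.0122 by DESeq2 and 0.135 with cultures summed, so that the call passed in 13 of 28 alternative settings. *Cyp2j6* and *Cyp27a1* passed the test in neither genotype, with log2FCs of -0.12 (adjusted p 0.516) and 0.02 (adjusted p 0.922) for *Cyp2j6* and -0.34 (adjusted p 0.567) and 0.15 (adjusted p 0.855) for *Cyp27a1*. *Fmo5*, a flavin monooxygenase, fell in both genotypes, with log2FCs of -1.31 (adjusted p 2.35e-06) and -1.17 (adjusted p 8.02e-06).

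Of 3 glucuronidation genes, the 2 transferases fell and *Ugdh*, which makes the glucuronic acid donor, did not. *Ugt2b34*, a glucuronosyltransferase, was at 1486, 1609.5, 1148 and 1147 CPM in untreated *Atg16l1* fl/fl organoids, at 807, 773, 693 and 632 CPM with IL-22, at 916, 889, 792 and 791 CPM in untreated *Atg16l1* ΔIEC organoids and at 557, 433, 399 and 418 CPM with IL-22. Treated cultures lay below untreated ones in both genotypes, and *Atg16l1* ΔIEC cultures lay below the *Atg16l1* fl/fl cultures of the same treatment. The log2FC with IL-22 was -0.89 ± 0.12 (SE, adjusted p 1.38e-05) in *Atg16l1* fl/fl and -0.91 ± 0.12 (SE, adjusted p 1.09e-05) in *Atg16l1* ΔIEC organoids. For *Ugt1a1*, which conjugates bilirubin and shares exons with its neighbours, it was -0.92 (adjusted p 4.64e-05) and -1.41 (adjusted p 8.57e-07). *Ugdh* had a log2FC of -0.25 (adjusted p 0.0468) in *Atg16l1* fl/fl organoids, where the adjusted p was 0.00615 with the line as a block, and of 0.00 (adjusted p 0.988) in *Atg16l1* ΔIEC organoids.

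The 4 sulfotransferases differed among themselves. *Sult6b2* was at 67.2, 52.1, 24.5 and 31.6 CPM in untreated *Atg16l1* fl/fl organoids, at 67.3, 85.8, 27.97 and 32.7 CPM with IL-22, at 64.6, 49.2, 72.4 and 55.2 CPM in untreated *Atg16l1* ΔIEC organoids and at 161, 182, 127 and 184 CPM with IL-22. In *Atg16l1* ΔIEC organoids the treated cultures were all above the untreated ones, while in *Atg16l1* fl/fl organoids the groups overlapped and line 1 was above line 2 under either treatment. The log2FC of *Sult6b2* was 0.24 ± 0.31 (SE, adjusted p 0.587) in *Atg16l1* fl/fl and 1.44 ± 0.29 (SE, adjusted p 0.000696) in *Atg16l1* ΔIEC organoids, the latter 1.28 (adjusted p 0.0639) without *Atg16l1* ΔIEC line 1 and 1.59 (adjusted p 0.0188) without line 2. *Sult1c2* was at 95.3, 93.7, 44.9 and 53.5 CPM in untreated *Atg16l1* fl/fl organoids, at 68.5, 59.1, 27.97 and 23.97 CPM with IL-22, at 15.8, 19.7, 29.8 and 27.8 CPM in untreated *Atg16l1* ΔIEC organoids and at 5.67, 4.83, 10.6 and 6.37 CPM with IL-22. Line 1 was the higher line in *Atg16l1* fl/fl and the lower one in *Atg16l1* ΔIEC organoids, and each line had lower values with IL-22. Its log2FC was -0.73 ± 0.29 (SE, adjusted p 0.0602) in *Atg16l1* fl/fl organoids, where the block gave an adjusted p of 9.32e-07, and -1.70 ± 0.43 (SE, adjusted p 0.00527) in *Atg16l1* ΔIEC organoids. Without *Atg16l1* ΔIEC line 1 or line 2 the latter adjusted p of *Sult1c2* was 0.0611 or 0.0962, and leaving out single *Atg16l1* ΔIEC cultures raised it to at most 0.0217, without treated culture 2. *Sult1c2* passed in neither genotype with the cultures of each line summed. *Sult1d1* fell in both genotypes, with log2FCs of -1.56 (adjusted p 2.94e-07) and -1.25 (adjusted p 8.46e-06). *Sult1b1* fell in both as well, with -0.94 (adjusted p 0.00102) in *Atg16l1* fl/fl and -0.79 (adjusted p 0.00938) in *Atg16l1* ΔIEC organoids, where treated and untreated cultures overlapped. Leaving out any 1 of the 16 cultures other than treated *Atg16l1* ΔIEC culture 1 raised the latter adjusted p of *Sult1b1* past 0.01, up to 0.0386 without treated *Atg16l1* ΔIEC culture 4, and without *Atg16l1* ΔIEC line 2 the log2FC was -0.41 (adjusted p 0.119), whereas without *Atg16l1* ΔIEC line 1 it was -1.31. The call passed in 8 of 28 alternative settings. Leaving out *Atg16l1* fl/fl line 1 or line 2 raised the adjusted p of *Sult1b1* in *Atg16l1* fl/fl organoids to 0.0295 or 0.0308.

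All 3 alcohol dehydrogenases fell in both genotypes. *Adh1*, which oxidizes ethanol and retinol, was at 1103, 1205, 733 and 752 CPM in untreated *Atg16l1* fl/fl organoids, at 457, 436, 284 and 231 CPM with IL-22, at 729.5, 768, 821 and 763 CPM in untreated *Atg16l1* ΔIEC organoids and at 142, 144, 134 and 116 CPM with IL-22. Untreated and treated cultures stood far apart, and among treated cultures those of *Atg16l1* ΔIEC organoids were the lowest. Its log2FC with IL-22 was -1.43 ± 0.18 (SE, adjusted p 6.79e-06) in *Atg16l1* fl/fl and -2.52 ± 0.19 (SE, adjusted p 7.59e-09) in *Atg16l1* ΔIEC organoids. *Adh6a*, its neighbour on chromosome 3, was at 768, 767, 571 and 572 CPM in untreated *Atg16l1* fl/fl organoids, at 475, 448, 375 and 301 CPM with IL-22, at 483, 510.1, 481 and 461 CPM in untreated *Atg16l1* ΔIEC organoids and at 196, 172, 138 and 105 CPM with IL-22. Again the treated cultures were below the untreated ones of their genotype, with the treated *Atg16l1* ΔIEC cultures lowest. Its log2FC was -0.75 ± 0.16 (SE, adjusted p 0.00114) in *Atg16l1* fl/fl and -1.67 ± 0.16 (SE, adjusted p 2.52e-07) in *Atg16l1* ΔIEC organoids. *Adh5*, which acts on the glutathione adduct of formaldehyde, had log2FCs of -0.60 (adjusted p 0.000136) and -0.64 (adjusted p 8.19e-05), and without *Atg16l1* ΔIEC line 2 the latter adjusted p was 0.0185. Of 4 aldehyde dehydrogenases, *Aldh1b1* fell in both genotypes, with log2FCs of -1.48 (adjusted p 2.22e-10) and -1.51 (adjusted p 1.35e-10). *Aldh2*, the mitochondrial acetaldehyde dehydrogenase, had -0.30 (adjusted p 0.00897) in *Atg16l1* fl/fl and -0.21 (adjusted p 0.0650) in *Atg16l1* ΔIEC organoids, and without *Atg16l1* fl/fl line 1 or line 2 the adjusted p in *Atg16l1* fl/fl organoids was 0.247 or 0.0383. The fall of *Aldh2* passed in 10 of 28 alternative settings, with an adjusted p of 0.0130 with RLE scaling, 0.0172 without a filter and up to 0.0430 with 1 culture left out. *Aldh9a1* had -0.28 (adjusted p 0.0183) and -0.29 (adjusted p 0.0201), and with the line as a block its adjusted p was 0.000338 and 0.000556. *Aldh9a1* passed in neither genotype with the cultures of each line summed. *Aldh3a2*, which oxidizes fatty aldehydes, had -0.16 (adjusted p 0.161) and -0.06 (adjusted p 0.652).

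Among 6 aldo-keto and carbonyl reductases, 1 rose and 4 fell in *Atg16l1* fl/fl organoids, and 1 rose and 2 fell in *Atg16l1* ΔIEC organoids. *Akr1b8*, which reduces retinal and lipid aldehydes, was at 69.3, 64.8, 60.3 and 58.05 CPM in untreated *Atg16l1* fl/fl organoids, at 159, 156, 124 and 149.5 CPM with IL-22, at 98.8, 89.6, 103 and 92.2 CPM in untreated *Atg16l1* ΔIEC organoids and at 232, 199, 243 and 249 CPM with IL-22. Every treated culture was above every untreated culture, and *Atg16l1* ΔIEC cultures were above the *Atg16l1* fl/fl cultures of the same treatment. By the test the log2FC was 1.22 ± 0.10 (SE, adjusted p 1.36e-08) in *Atg16l1* fl/fl and 1.27 ± 0.09 (SE, adjusted p 4.00e-09) in *Atg16l1* ΔIEC organoids. *Akr1c19*, an enzyme of the family that acts on hydroxysteroids, was at 25.1, 24.8, 40.8 and 28.6 CPM in untreated *Atg16l1* fl/fl organoids, at 5.54, 5.84, 6.38 and 6.89 CPM with IL-22, at 77.1, 66.2, 33.4 and 39.9 CPM in untreated *Atg16l1* ΔIEC organoids and at 65.2, 46.01, 16.02 and 26.3 CPM with IL-22. In *Atg16l1* fl/fl organoids the treated cultures were all below the untreated ones, in *Atg16l1* ΔIEC organoids the groups overlapped, and the treated *Atg16l1* ΔIEC cultures were all above the treated *Atg16l1* fl/fl cultures. The log2FC of *Akr1c19* was -2.23 ± 0.40 (SE, adjusted p 0.000253) in *Atg16l1* fl/fl and -0.56 ± 0.30 (SE, adjusted p 0.175) in *Atg16l1* ΔIEC organoids, where the adjusted p was 0.00187 with the line as a block. Without *Atg16l1* fl/fl line 2 the former was -2.12 (adjusted p 0.0266). *Akr1c13*, its neighbour on chromosome 13, was at 94.4, 102, 82.96 and 81.9 CPM in untreated *Atg16l1* fl/fl organoids, at 54.2, 54.9, 36.8 and 41.9 CPM with IL-22, at 165, 131, 121 and 123 CPM in untreated *Atg16l1* ΔIEC organoids and at 137, 108, 93.4 and 106 CPM with IL-22. All treated *Atg16l1* fl/fl cultures were below all other cultures, and in *Atg16l1* ΔIEC organoids the groups overlapped. Its log2FC was -0.96 ± 0.14 (SE, adjusted p 4.11e-05) in *Atg16l1* fl/fl and -0.29 ± 0.13 (SE, adjusted p 0.119) in *Atg16l1* ΔIEC organoids, with an adjusted p of 0.00865 in the latter with the block.

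The carbonyl reductases *Cbr1* and *Cbr3* fell in both genotypes. *Cbr1* had log2FCs of -0.75 (adjusted p 0.000137) in *Atg16l1* fl/fl and -0.73 (adjusted p 0.000217) in *Atg16l1* ΔIEC organoids, and *Cbr3* of -0.85 (adjusted p 0.000515) and -0.78 (adjusted p 0.00129). Leaving out line 1 of the genotype raised the adjusted p of *Cbr1* to 0.0117 and 0.0173, and without *Atg16l1* ΔIEC line 1 or line 2 that of *Cbr3* in *Atg16l1* ΔIEC organoids was 0.102 or 0.0132. *Akr1a1*, an aldehyde reductase, had log2FCs of 0.04 (adjusted p 0.699) and 0.21 (adjusted p 0.0394), and with the block the latter had an adjusted p of 0.00614. Both epoxide hydrolases fell. *Ephx1*, the microsomal epoxide hydrolase, was at 226, 257, 199 and 227 CPM in untreated *Atg16l1* fl/fl organoids, at 101, 109, 105 and 106 CPM with IL-22, at 136, 149, 108 and 123 CPM in untreated *Atg16l1* ΔIEC organoids and at 77.4, 70.4, 60.4 and 63.4 CPM with IL-22. Treated cultures were below the untreated cultures of their genotype, and *Atg16l1* ΔIEC cultures were below the *Atg16l1* fl/fl cultures of the same treatment. Its log2FC was -1.11 ± 0.10 (SE, adjusted p 6.63e-08) in *Atg16l1* fl/fl and -0.94 ± 0.10 (SE, adjusted p 1.15e-06) in *Atg16l1* ΔIEC organoids. For *Ephx2*, the soluble enzyme, it was -0.99 (adjusted p 0.000290) and -0.97 (adjusted p 0.000550), and without *Atg16l1* ΔIEC line 1 or line 2 the latter adjusted p was 0.0230 or 0.0337.

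All 4 carboxylesterases, which split ester drugs and lipids, fell in both genotypes. *Ces2a* was at 105, 96.5, 187 and 187 CPM in untreated *Atg16l1* fl/fl organoids, at 14.3, 12.9, 20.8 and 14.4 CPM with IL-22, at 168, 131, 87.7 and 72.7 CPM in untreated *Atg16l1* ΔIEC organoids and at 20.7, 23.6, 9.37 and 11.3 CPM with IL-22. Treated and untreated cultures were far apart, and among untreated cultures line 2 was the higher line in *Atg16l1* fl/fl and line 1 the higher line in *Atg16l1* ΔIEC organoids. The log2FC of *Ces2a* was -3.16 ± 0.31 (SE, adjusted p 2.12e-07) in *Atg16l1* fl/fl and -2.86 ± 0.31 (SE, adjusted p 1.01e-06) in *Atg16l1* ΔIEC organoids. *Ces2c* was at 171, 139, 158 and 125 CPM in untreated *Atg16l1* fl/fl organoids, at 30.5, 27.8, 24.2 and 23.4 CPM with IL-22, at 152, 158, 170.1 and 130.4 CPM in untreated *Atg16l1* ΔIEC organoids and at 38.9, 36.4, 27.2 and 30.1 CPM with IL-22. Here untreated cultures of the 2 genotypes overlapped, and treated cultures were well below untreated ones. The log2FC of *Ces2c* was -2.49 ± 0.13 (SE, adjusted p 2.05e-11) and -2.21 ± 0.13 (SE, adjusted p 1.01e-10). *Ces1f* was at 42.4, 48.5, 63.01 and 73.3 CPM in untreated *Atg16l1* fl/fl organoids, at 7.92, 8.41, 12.6 and 12.9 CPM with IL-22, at 121, 88.8, 41.4 and 47.3 CPM in untreated *Atg16l1* ΔIEC organoids and at 34.4, 24.4, 6.35 and 16.5 CPM with IL-22. The groups did not overlap within a genotype, and line 2 was higher in *Atg16l1* fl/fl and line 1 in *Atg16l1* ΔIEC organoids, as for *Ces2a*. The log2FC of *Ces1f* was -2.41 ± 0.38 (SE, adjusted p 7.61e-05) and -1.95 ± 0.35 (SE, adjusted p 0.000276). *Ces2e* had log2FCs of -1.28 (adjusted p 1.41e-07) and -1.23 (adjusted p 2.49e-07). Of the efflux pumps, *Abcb1a*, which encodes P-glycoprotein, fell by 1.83 (adjusted p 7.97e-07) and 1.62 (adjusted p 2.70e-06) on the log2 scale. *Abcg2* had log2FCs of -0.50 (adjusted p 0.0283) in *Atg16l1* fl/fl organoids, where the block gave an adjusted p of 0.000561, and -0.38 (adjusted p 0.0952) in *Atg16l1* ΔIEC organoids. *Abcg2* passed in neither genotype with the cultures of each line summed.

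**Figure D2:**
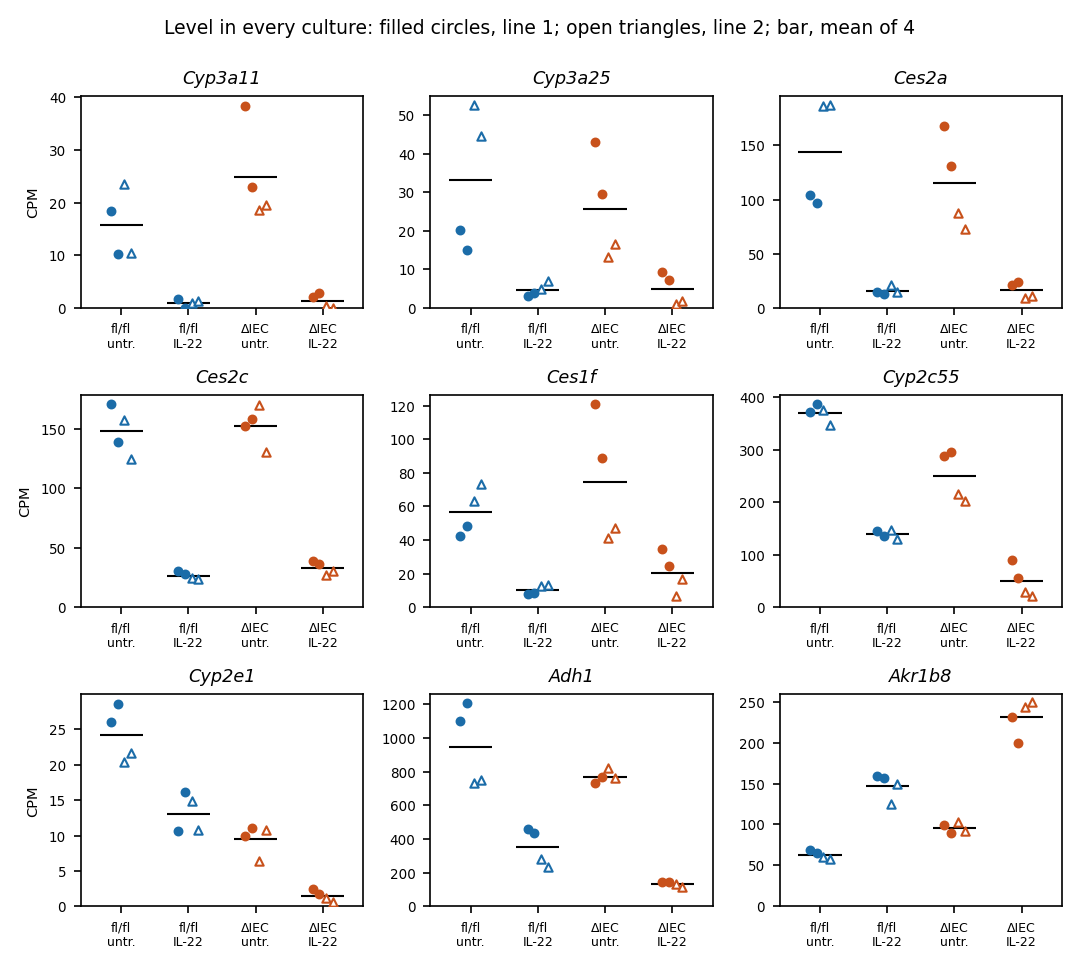
CPM (y axes, from 0) of 9 members in each of the 16 cultures, by genotype and treatment (x axes), with filled circles for line 1, open triangles for line 2 and a bar for the mean of 4 cultures. For the 8 members other than *Akr1b8* every treated culture lies below every untreated culture of its genotype, and for *Akr1b8* every treated culture lies above.

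Whether the response to IL-22 differed between genotypes was tested as an interaction, the log2FC in *Atg16l1* ΔIEC minus that in *Atg16l1* fl/fl organoids. In the edgeR fit without a line term, none of the 46 members passed, where 0.0159% of all tested genes did. An unadjusted p under 0.05 was found for 10 of the 46 members and for 912 of all 12559 tested genes. DESeq2 and limma-voom each called 1 member, *Adh1*, with adjusted p 0.00980 and 0.00978, and edgeR without a filter on low counts called 10. Of the 2574 genes that DESeq2 kept for this test, 0.427% passed. Of all genes tested, 0.0398% passed by limma-voom and 0.315% without a filter. With the line as a block, which compares treated and untreated cultures within each line, edgeR called 8 members, where 0.446% of all tested genes passed. With the cultures of each line summed, edgeR called 0 members and 0 of all tested genes, so that none of these 8 passed there. For 5 of the 8 the log2FC was more negative in *Atg16l1* ΔIEC organoids. The interaction was -1.87 (adjusted p 0.00573) for *Cyp2e1* and -1.04 (adjusted p 0.00112) for *Cyp2c55*. Among the conjugating and dehydrogenase genes it was -1.05 (adjusted p 0.00584) for *Sult1c2*, -1.08 (adjusted p 2.52e-07) for *Adh1* and -0.94 (adjusted p 3.92e-05) for *Adh6a*. The other 3 had positive interactions, of 1.18 (adjusted p 0.000454) for *Sult6b2*, 0.67 (adjusted p 0.00370) for *Akr1c13* and 1.72 (adjusted p 9.68e-05) for *Akr1c19*. In the fit without a line term their adjusted p ranged from 0.132 for *Cyp2e1* to 0.731 for *Sult1c2*. Without *Atg16l1* ΔIEC line 1 the fit called 1 member, *Cyp2c55*, with an interaction of -1.65 (adjusted p 9.38e-05), whereas without *Atg16l1* ΔIEC line 2 the interaction of *Cyp2c55* was -0.61 (adjusted p 0.423). Without *Atg16l1* fl/fl line 2 the fit called *Adh1*, with -1.15 (adjusted p 0.000796).

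Between untreated organoids of the 2 genotypes, 3 members were higher and 6 lower in *Atg16l1* ΔIEC organoids, where 3.78% of all tested genes were higher and 5.98% lower. With IL-22, 6 were higher and 11 lower, where 9.91% of all tested genes were higher and 9.84% lower. With the cultures of each line summed, edgeR found 0 higher and 0 lower untreated, where DESeq2 and limma-voom on separate cultures each found 3 higher and 6 lower, and with IL-22 it found 2 higher and 2 lower. With cultures summed, 0.0478% of all tested genes passed untreated and 1.45% with IL-22. Untreated, 11.2% of all genes passed in either direction by DESeq2 and 6.19% by limma-voom. Leaving out *Atg16l1* ΔIEC line 2 gave 5 higher members untreated and 10 with IL-22, and leaving out *Atg16l1* fl/fl line 2 gave 10 lower members untreated. The shares of all genes with a line left out were not tallied. The comparisons share cultures with those of IL-22 above. *Cyp2e1* was lower in *Atg16l1* ΔIEC organoids under both treatments, with a log2 difference of -1.33 ± 0.20 (SE, adjusted p 0.000180) untreated and -3.21 ± 0.30 (SE, adjusted p 7.66e-07) with IL-22, and no *Atg16l1* ΔIEC culture reached a *Atg16l1* fl/fl culture of the same treatment. *Sult1c2* was lower as well, with -1.69 ± 0.32 (SE, adjusted p 0.00107) and -2.67 ± 0.39 (SE, adjusted p 5.61e-05), again without overlap, and without *Atg16l1* ΔIEC line 1 the untreated difference was -1.35 (adjusted p 0.0562). For *Cyp2s1* the difference was -0.79 (adjusted p 5.19e-05) and -0.88 (adjusted p 9.32e-06), for *Ephx1* -0.81 (adjusted p 2.05e-05) and -0.64 (adjusted p 0.000155), and for *Ugt2b34* -0.67 (adjusted p 0.000763) and -0.69 (adjusted p 0.000306). Untreated, *Ugt2b34* had -0.44 (adjusted p 0.0170) without *Atg16l1* fl/fl line 1, and its adjusted p was, without *Atg16l1* ΔIEC line 2, 0.0180 untreated and 0.0120 with IL-22. *Aldh2* was lower untreated, with -0.38 (adjusted p 0.00325), and without *Atg16l1* fl/fl line 1 or *Atg16l1* ΔIEC line 2 the adjusted p was 0.0654 or 0.0345. This call of *Aldh2* passed in 20 of 27 alternative settings, with an adjusted p of up to 0.0141 with 1 culture left out.

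*Akr1b8* and *Ugdh* were higher in *Atg16l1* ΔIEC organoids under both treatments. The log2 difference was 0.60 (adjusted p 0.000356) untreated and 0.65 (adjusted p 3.00e-05) with IL-22 for *Akr1b8*, and 0.55 (adjusted p 0.000462) and 0.81 (adjusted p 6.16e-06) for *Ugdh*. *Akr1c13* was higher by 0.58 (adjusted p 0.00525) untreated and 1.25 (adjusted p 5.32e-06) with IL-22, and without *Atg16l1* ΔIEC line 1 the untreated difference was 0.42 (adjusted p 0.0773) and without *Atg16l1* fl/fl line 2 it was 0.46 (adjusted p 0.0227). Leaving out 5 single untreated cultures in turn also raised that adjusted p of *Akr1c13* past 0.01, up to 0.0299 without *Atg16l1* ΔIEC culture 1. Larger differences appeared with IL-22. *Akr1c19* was higher by 2.59 ± 0.39 (SE, adjusted p 6.91e-05) and *Sult6b2* by 1.63 ± 0.29 (SE, adjusted p 0.000294), and neither passed the test untreated, where the differences were 0.93 (adjusted p 0.0377) and 0.43 (adjusted p 0.344). *Cyp2c55*, *Adh1* and *Adh6a* were lower with IL-22, with -1.54 ± 0.26 (SE, adjusted p 0.000211), -1.39 ± 0.19 (SE, adjusted p 2.55e-05) and -1.39 ± 0.16 (SE, adjusted p 7.33e-06), and did not pass untreated, with -0.56 (adjusted p 0.0941), -0.30 (adjusted p 0.243) and -0.47 (adjusted p 0.0405). Without *Atg16l1* ΔIEC line 1 or line 2 the difference of *Cyp2c55* with IL-22 was -2.48 or -0.95, and that of *Cyp2d26* -1.70 or -0.70. For *Sult6b2* it was 2.42 or 1.08 without *Atg16l1* fl/fl line 1 or line 2. The remaining members past the threshold with IL-22 were *Cyp2d26*, with -1.13 (adjusted p 0.000498), *Cyp4v3*, with -1.03 (adjusted p 0.00147), *Ugt1a1*, with -0.68 (adjusted p 0.00292), and *Aldh3a2*, with 0.35 (adjusted p 0.00317). Without treated *Atg16l1* ΔIEC culture 4 the difference of *Ugt1a1* was -0.54 (adjusted p 0.0139), and without *Atg16l1* ΔIEC line 2 it was -0.45. The call of *Ugt1a1* passed in 21 of 27 alternative settings. Without *Atg16l1* ΔIEC line 2 the adjusted p was 0.0261 for *Cyp4v3* and 0.0474 for *Ugt1a1*, and without *Atg16l1* fl/fl line 2 it was 0.0423 for *Ugt1a1*. For *Aldh3a2* it was 0.0751 without *Atg16l1* fl/fl line 1, 0.0530 without *Atg16l1* ΔIEC line 1, 0.0106 without *Atg16l1* ΔIEC line 2 and up to 0.0199 with 1 of 4 treated cultures left out, so that it passed in 17 of 27 alternative settings. By limma-voom the adjusted p was 0.0112 for *Cyp4v3*, 0.0120 for *Ugt1a1* and 0.0119 for *Aldh3a2*.

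**Figure D3:**
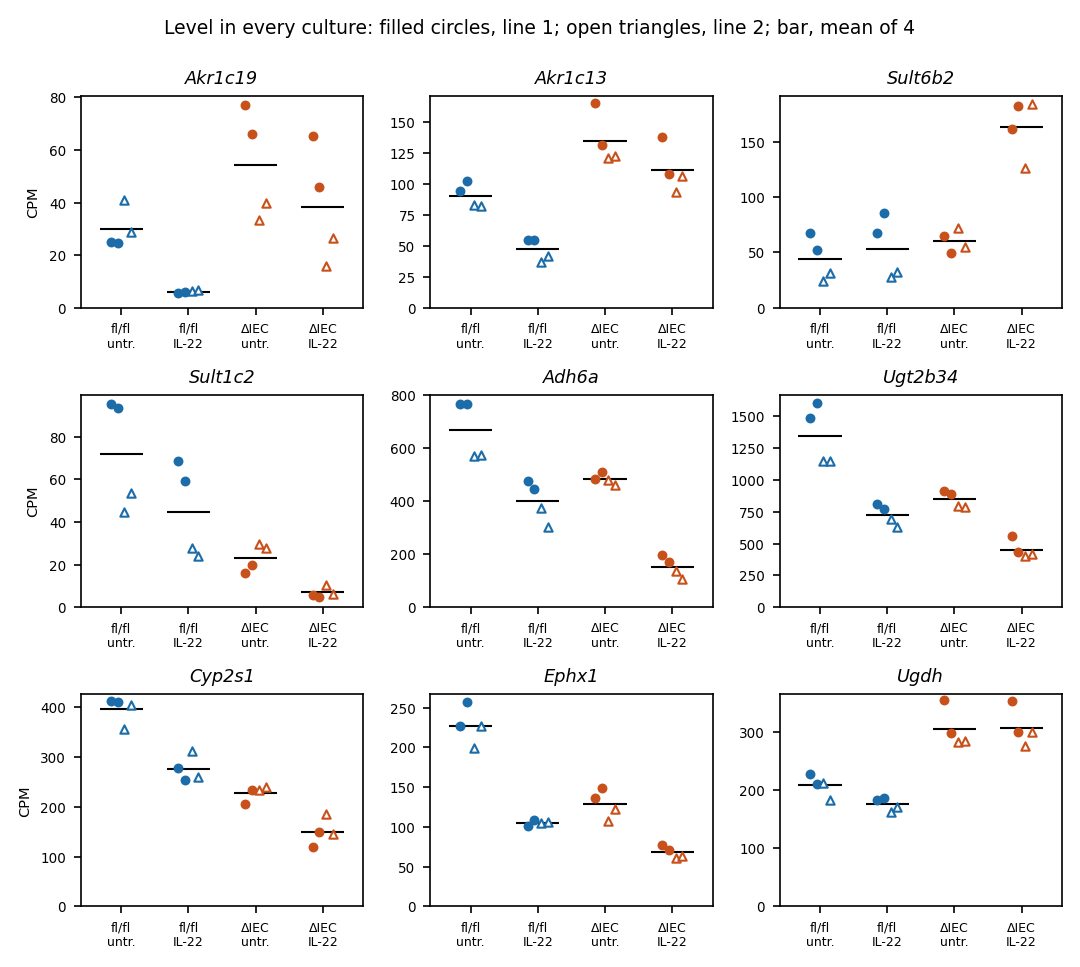
CPM (y axes, from 0) of 9 members that differed between genotypes or in the interaction, in each of the 16 cultures, by genotype and treatment (x axes), with filled circles for line 1, open triangles for line 2 and a bar for the mean of 4 cultures. *Akr1c19* and *Sult6b2* are higher in every treated *Atg16l1* ΔIEC culture than in any treated *Atg16l1* fl/fl culture, and *Adh6a* is lower.

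Other marker lists also differed between the genotypes. Of 14 proliferation markers 13 were higher in *Atg16l1* ΔIEC organoids with IL-22 and none was lower, and their sum was 1319, 1131, 1417 and 1365 CPM in treated *Atg16l1* fl/fl and 2396, 2178, 1877 and 2013 CPM in treated *Atg16l1* ΔIEC organoids, with *Top2a* the most abundant. Of 10 Paneth cell markers 8 were lower, with sums of 9964, 9119, 8215 and 7455 and 4671, 4077, 4944 and 4251 CPM, the most abundant being *Defa24* in *Atg16l1* fl/fl and *Lyz1* in *Atg16l1* ΔIEC organoids. Of 10 goblet cell markers 6 were lower, with sums of 3091, 3114, 2303 and 2094 and 1080.2, 1116, 1755 and 1502 CPM, led by *Fcgbp*. Of 10 enteroendocrine markers 5 were lower, with sums of 754, 679.6, 563 and 605 and 274, 288, 520.1 and 447 CPM, led by *Chgb*. Of 26 enterocyte markers 4 were higher and 2 lower, and of 12 stem and crypt markers 4 were higher and 3 lower. Untreated, 6 Paneth, 5 goblet and 3 enteroendocrine markers were lower and none higher, 4 proliferation markers were higher and none lower, 4 stem and crypt markers were higher and 1 lower, and 1 enterocyte marker was higher and 2 lower. The Paneth sums were 8228, 7630.5, 6048 and 5729 CPM in untreated *Atg16l1* fl/fl and 3339, 3209, 4213 and 4059 CPM in untreated *Atg16l1* ΔIEC organoids, without overlap. None of these markers was at 0, and their part in the genotype differences of the members was not tested.

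The lines of a genotype differed for many members. The 2 cultures of line 1 did not overlap those of line 2 for 29 of the 46 tested members in untreated *Atg16l1* fl/fl organoids, where the same held for 57.2% of all tested genes, and for 30 in treated *Atg16l1* fl/fl organoids, where it held for 51.9%. It held for 31 members in untreated *Atg16l1* ΔIEC organoids, against 41.3% of all tested genes, and for 34 in treated *Atg16l1* ΔIEC organoids, against 41.8%. In treated *Atg16l1* ΔIEC organoids the median absolute log2 difference between lines was 0.40 for the 46 tested members and 0.18 for all tested genes, and 39 of the 46 were lower in line 2, as were 49.7% of all tested genes. In untreated *Atg16l1* ΔIEC organoids it was 0.27 for the members and 0.14 for all genes, with 38 members and 50.3% of all genes lower in line 2. In *Atg16l1* fl/fl organoids the members were closer to all genes, at 0.20 against 0.21 untreated and 0.20 against 0.17 with IL-22. The largest line differences in untreated organoids were in opposite directions in the 2 genotypes for *Cyp3a25*, at a log2 difference of line 2 minus line 1 of 1.45 in *Atg16l1* fl/fl and -1.23 in *Atg16l1* ΔIEC organoids. For *Sult1c2* the differences were -0.94 and 0.69. Of 6 markers of proximal small intestine, none of them at 0 and *Cybrd1* the most abundant, the sum was 1764, 1557, 723 and 729 CPM in untreated *Atg16l1* fl/fl and 763, 967, 1393 and 1260.1 CPM in untreated *Atg16l1* ΔIEC organoids, so that it was higher in the same lines as *Sult1c2* and lower in the *Atg16l1* ΔIEC line in which most members were higher. The enterocyte sum, given above, was lower in line 2 than in line 1 of treated *Atg16l1* ΔIEC organoids, as most members were. The part of either list in the line differences was not tested. The lines are not comparable across genotypes, since line 1 of one genotype has no tie to line 1 of the other.

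Related genes outside the set were read from the same fit. Of 180 other genes of the same symbol families, 50 were tested, of which 28 fell and 4 rose with IL-22 in *Atg16l1* fl/fl organoids, and 24 fell and 5 rose in *Atg16l1* ΔIEC organoids. *Aldh1a3*, a retinal dehydrogenase, rose by 3.09 (adjusted p 1.92e-07) and 3.38 (adjusted p 5.41e-08) on the log2 scale, and *Aldh1l1* by 1.01 (adjusted p 2.04e-07) and 1.46 (adjusted p 3.14e-09). The carboxylesterase *Ces1d* had log2FCs of -3.42 (adjusted p 9.85e-08) and -4.08 (adjusted p 3.84e-06), and *Adh4* fell in *Atg16l1* ΔIEC organoids, with -4.00 (adjusted p 3.19e-08). Of 6 tested PXR and CAR targets outside the set, 4 fell in *Atg16l1* fl/fl and 3 in *Atg16l1* ΔIEC organoids. Among them *Aldh1a7* had log2FCs of -3.23 (adjusted p 0.000261) and -2.36 (adjusted p 0.000214), *Gstm1* of -2.05 (adjusted p 1.66e-06) and -2.16 (adjusted p 9.88e-07), and *Abcc2* of -0.92 (adjusted p 1.46e-05) and -1.06 (adjusted p 3.62e-06). Of 15 other drug transporters 6 fell and 1 rose in *Atg16l1* fl/fl organoids, and 6 fell in *Atg16l1* ΔIEC organoids, with *Slco2b1* at -1.79 (adjusted p 5.41e-05) and -1.90 (adjusted p 7.94e-05). Of 21 other conjugation genes 10 fell and 3 rose in *Atg16l1* fl/fl, and 9 fell and 3 rose in *Atg16l1* ΔIEC organoids. Those that rose were *Papss2*, which makes the sulfate donor, with 0.81 (adjusted p 0.000624) and 1.13 (adjusted p 2.19e-05), the carrier *Slc35d1*, with 0.59 (adjusted p 5.65e-05) and 0.59 (adjusted p 7.24e-05), and *Gusb*, with 0.43 (adjusted p 0.00641) and 0.47 (adjusted p 0.00238). *Gstm3* had -2.19 (adjusted p 1.70e-05) and -2.25 (adjusted p 1.72e-05).

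Between genotypes, 1 of the 50 family genes was higher and 11 were lower in untreated *Atg16l1* ΔIEC organoids, and 3 were higher and 10 lower with IL-22. *Akr1b3* was higher under both treatments, by 0.52 (adjusted p 0.00414) and 0.70 (adjusted p 0.000206) on the log2 scale, and *Akr1c12*, a neighbour of *Akr1c13*, was higher with IL-22, by 0.97 (adjusted p 2.23e-05). Of the 17 receptors and partners, 3 were lower and none higher untreated, and 4 were lower and 1 higher with IL-22. *Nr1h3* was higher with IL-22, by 1.14 (adjusted p 0.00794), whereas *Nr1h4* had a difference of -1.38 (adjusted p 4.43e-06) untreated and -0.59 (adjusted p 0.00103) with IL-22, and *Nr1i3*, which encodes CAR, of -0.73 (adjusted p 0.00255) and -0.80 (adjusted p 0.000602). The genes outside the set whose pattern over the 16 cultures was most like the members' mean standardized level were *Cat*, with Pearson r of 0.990, *Slc25a15*, with 0.985, *Otc*, with 0.975, *Cyp2c68*, with 0.974, and *Gstm2*, with 0.972. These r values describe the likeness over 16 cultures that share lines and fall into treated and untreated sets.

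Several members that fell lie side by side in the genome (GRCm38). *Ces2a* (ENSMUSG00000055730.16) is at chr8:104734003-104741634, *Ces2c* at chr8:104847068-104854483 and *Ces2e* at chr8:104926260-104934672. *Cyp2c55* (ENSMUSG00000025002.5) is at chr19:39007019-39042693, *Cyp2c65* at chr19:39061015-39093944 and *Cyp2c66* at chr19:39113898-39187072. *Cyp3a11* (ENSMUSG00000056035.8) is at chr5:145854426-145879964 and *Cyp3a25* at chr5:145977194-146009618, and *Adh1* (ENSMUSG00000074207.10) at chr3:138260991-138290698 and *Adh6a* at chr3:138313286-138331134. Such neighbours are similar in sequence, and alignments at more than 1 place, which made up 21.5% to 24.2% of the tallied alignments, were left out of the counts, so that the level of each neighbour alone is uncertain. The same holds for *Akr1c13* (ENSMUSG00000021213.11), at chr13:4191150-4205596, and *Akr1c19* (ENSMUSG00000071551.12), at chr13:4228700-4252843.

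Promoter windows of 300 bases, 250 before and 50 after the start of the gene, were found for 43 of the 47 members in RefSeq (GRCm38.p6), and short motifs were sought on both strands of these and of the windows of all 27025 genes listed. The core of the aryl hydrocarbon receptor element, GCGTG, was in 11 of the 43 (25.6%) and 32.5% of all windows. The 6-base nuclear receptor site AGGTCA was in 5 of the 43 (11.6%) and 16.04% of all windows, and the related site AGTTCA in 10 of the 43 (23.3%) and 14.02% of all windows. The letters TTCNNNGAA, bound by STAT factors, were in 3 of the 43 (6.98%) and 8.47% of all windows. The core of the antioxidant response element, TGACNNNGC, was in 8 of the 43 (18.6%) and 12.5% of all windows. Motifs could overlap, 18 of the 43 windows held none of them, and a match is a description of the letters alone. Windows are shown for the members with the 2 largest falls in *Atg16l1* fl/fl organoids and for the member that rose in both genotypes, with motif matches in capitals. The *Cyp3a11* window (chr5:145879805-145880104, minus strand) held AGGTCA once and AGTTCA once, on the reverse strand for the latter. The *Ces2a* window (chr8:104733753-104734052, plus strand) held AGGTCA once. The *Akr1b8* window (chr6:34353896-34354195, plus strand) held GCGTG once and AGTTCA once, the latter on the reverse strand.
Cyp3a11: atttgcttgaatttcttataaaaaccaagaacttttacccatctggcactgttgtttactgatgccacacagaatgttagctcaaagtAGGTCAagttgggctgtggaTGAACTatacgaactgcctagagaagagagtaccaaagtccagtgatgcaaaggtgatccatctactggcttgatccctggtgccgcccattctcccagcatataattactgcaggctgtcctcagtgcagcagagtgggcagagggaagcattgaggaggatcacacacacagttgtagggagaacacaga
Ces2a: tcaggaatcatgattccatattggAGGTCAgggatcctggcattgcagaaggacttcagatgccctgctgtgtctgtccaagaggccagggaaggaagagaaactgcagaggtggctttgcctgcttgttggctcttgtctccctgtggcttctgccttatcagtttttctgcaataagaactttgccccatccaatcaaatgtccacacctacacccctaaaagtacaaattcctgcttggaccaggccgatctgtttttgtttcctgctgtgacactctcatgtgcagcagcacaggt
Akr1b8: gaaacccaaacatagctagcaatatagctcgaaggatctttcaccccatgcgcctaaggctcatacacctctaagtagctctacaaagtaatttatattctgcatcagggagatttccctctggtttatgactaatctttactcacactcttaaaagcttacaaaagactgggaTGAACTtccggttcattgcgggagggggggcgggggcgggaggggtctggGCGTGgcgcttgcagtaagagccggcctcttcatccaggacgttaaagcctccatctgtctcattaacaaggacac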

How the data were processed

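Paired-end RNA sequencing measured gene expression in 16 organoid cultures, for which the labels and the paper name different library kits. The deposited table holds raw read counts per gene, which the authors made by trimming with cutadapt, aligning with TopHat2 to GRCm38/mm10 and counting with HTSeq, with versions, strand setting and annotation release not given. The table was used as it stands. GENCODE vM21 gave symbols to 49326 of its 49585 genes, with IDs matched without their version, and to 43749 with the same version. Of the alignments HTSeq tallied, 36.3% to 38.3% were on genes, 38.0% to 40.1% were on no gene and 21.5% to 24.2% were at more than 1 place and not counted.

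Genes passing filterByExpr (12559) were fitted with edgeR 4.0.16 (R 4.3.3) as 4 group means over all 16 cultures with TMM scaling, quasi-likelihood F tests and Benjamini-Hochberg adjustment over all of them, with a threshold of 0.01. The 5 contrasts covered IL-22 in each genotype, their interaction, and genotype untreated and with IL-22. Alternatives were RLE scaling, no filter, at least 10 counts in every culture, only the groups compared, the line as a block, limma-voom (limma 3.58.1) with a correlation within lines of 0.261, DESeq2 1.42.0, cultures of a line summed, each culture or line left out, and a threshold of 0.05. The p of DESeq2 for the interaction was adjusted over the 2574 genes it kept. The tests were tried on simulated data. Whether untreated and treated cultures of a line share deviations from their group means was checked once, with correlations across genes of 0.26 to 0.44 within *Atg16l1* fl/fl lines and 0.06 to 0.32 within *Atg16l1* ΔIEC lines, and of -0.43 to -0.22 and -0.35 to -0.08 between lines. The deviations of the 4 cultures of a group sum to 0, so the negative values between lines follow from the positive ones within lines.

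The members and the gene lists (receptors, electron transfer and heme, targets of AHR and of PXR and CAR, transporters, conjugation, families by symbol, and markers of epithelium, enterocytes, proximal small intestine, stem and crypt cells, proliferation, Paneth, goblet, enteroendocrine, immune, stromal and liver cells) were chosen from general knowledge with earlier results of these data known. Values in every culture are given for both receptors, *Cyp1a1*, *Por*, the members past the threshold with the 6 largest fold changes in either IL-22 or either genotype comparison, and those with an interaction past it. Of the other lists at most 4 genes per direction were named, and the level of 1 immune marker is not reported here. Tables, promoter windows and figures were made with Python 3.11.15 (pandas 2.3.3, numpy 2.4.6, scipy 1.17.1, matplotlib 3.10.9).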

Additional observations from a re-analysis of the deposited data

Results flagged for a closer look

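In 7 of 184 sets of 4 cultures (3.80%), 1 per member and group, a single culture lay far from the other 3 by Dixon's test. Chance alone picks out about 1 in 20 such groups. In untreated *Atg16l1* ΔIEC organoids, *Ahr* in culture 2 was at 18.2 CPM, with the other 3 at 22.6 to 22.9, *Por* in culture 1 at 309 CPM, with the other 3 at 343 to 349, and *Cyp2s1* in culture 1 at 206 CPM, with the other 3 at 234 to 239.7. *Cyp2s1* in untreated *Atg16l1* fl/fl culture 3 was at 355 CPM, with the other 3 at 404 to 411. *Cyp4v3* in treated *Atg16l1* fl/fl culture 1 was at 19.00 CPM, with the other 3 at 12.6 to 13.6. In treated *Atg16l1* ΔIEC organoids, *Cyp27a1* in culture 3 was at 2.12 CPM, with the other 3 at 3.12 to 3.24, and *Aldh2* in culture 1 at 222 CPM, with the other 3 at 292 to 299.

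With the line as a block the interaction of genotype and IL-22 passed the threshold for 8 members. The interaction was -1.87 (adjusted p 0.00573) for *Cyp2e1*, -1.04 (adjusted p 0.00112) for *Cyp2c55*, -1.05 (adjusted p 0.00584) for *Sult1c2* and 1.18 (adjusted p 0.000454) for *Sult6b2*. It was -1.08 (adjusted p 2.52e-07) for *Adh1*, -0.94 (adjusted p 3.92e-05) for *Adh6a*, 0.67 (adjusted p 0.00370) for *Akr1c13* and 1.72 (adjusted p 9.68e-05) for *Akr1c19*. With the cultures of each line summed edgeR called 0 members. On separate cultures without the line term it called 0 of the 46, and DESeq2 and limma-voom called 1 each. In that edgeR fit 10 of the 46 members and 912 of all 12559 tested genes had an unadjusted p under 0.05.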

How the results depend on the processing

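The results recomputed under other settings were those of members past the threshold in edgeR, the 8 interactions past it with the block, and *Ahr*, *Nr1i2* and *Por* with IL-22. Of 2969 such values, 2754 (92.8%) kept their direction and their side of the threshold, 183 no longer passed, 29 newly passed and 3 reversed. By setting, the share that kept both was 97.0% with DESeq2, 97.1% with RLE scaling, 95.2% with limma-voom, 90.4% without a filter, 87.2% with the line as a block, 95.8% with 1 culture left out, 87.0% with 1 line left out and 46.2% with each line's cultures summed, which leaves 2 values per group. The 92.8%, 95.8% and 87.0% include values that could hardly change, so they overstate stability. A threshold of 0.05 cannot remove a call, and 103 of its 104 values kept both. Leaving out cultures outside the groups compared hardly moves a fold change, so such values test its direction little. For example, *Sult1b1* with IL-22 in *Atg16l1* ΔIEC organoids was at -0.79 without untreated *Atg16l1* fl/fl culture 1 and -0.80 without *Atg16l1* fl/fl line 1. The 3 values that reversed were near 0 and not past the threshold. *Nr1i2* with IL-22 in *Atg16l1* fl/fl organoids was 0.0751 without *Atg16l1* fl/fl line 1. *Ahr* with IL-22 in *Atg16l1* ΔIEC organoids was -0.0512 without untreated *Atg16l1* ΔIEC culture 2 and -0.0266 without *Atg16l1* ΔIEC line 1, and over single cultures it ranged from -0.0512 to 0.062. The cause was not tested.

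With cultures summed, 11 members fell and 1 rose in *Atg16l1* fl/fl, and 17 fell and 1 rose in *Atg16l1* ΔIEC organoids. The count that rose in *Atg16l1* ΔIEC organoids was also 1 without *Atg16l1* ΔIEC line 1 and 1 without *Atg16l1* ΔIEC line 2. Past the threshold for the interaction were 10 members without a filter, 8 with the block, 1 with limma-voom, 1 with DESeq2, 1 without *Atg16l1* ΔIEC line 1 and 1 without *Atg16l1* fl/fl line 2. They were 0 with cultures summed, with RLE scaling, with at least 10 counts in every culture and at a threshold of 0.05. Between untreated genotypes, 8 were higher and 12 lower without a filter, 0 and 0 with cultures summed, and 5 and 10 at a threshold of 0.05. Of all genes, 7.24% passed in either direction without a filter and 0.0478% with cultures summed. Leaving out *Atg16l1* ΔIEC line 2 gave 5 higher and leaving out *Atg16l1* fl/fl line 2 gave 10 lower. With IL-22, 10 were higher without a filter, 10 without *Atg16l1* ΔIEC line 2, and 2 were higher and 2 lower with cultures summed. Of all genes, 11.6% passed in either direction without a filter and 1.45% with cultures summed. The share of all genes was not tallied with a culture or line left out or at a threshold of 0.05. *Atg16l1* untreated was at -3.93 with cultures summed, past the threshold no longer (adjusted p 0.0132). The causes of these shifts were not tested.

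With 1 culture left out, 29 to 33 members fell and 1 rose in *Atg16l1* fl/fl, 27 to 28 fell and 2 rose in *Atg16l1* ΔIEC organoids, and edgeR called 0 interactions each time. The genotype counts were 2 to 3 higher and 5 to 7 lower untreated, and 5 to 7 higher and 10 to 13 lower with IL-22. *Atg16l1* ranged from -4.10 to -3.72 untreated and from -6.59 to -4.12 with IL-22. Members outside these results that passed with the block but not in the fit without it, such as *Ugdh* and *Abcg2* in *Atg16l1* fl/fl and *Cyp4f14* and *Cyp2b10* in *Atg16l1* ΔIEC organoids, are not among the 29 and are given in the report with their adjusted p. Of these 4, *Ugdh*, *Abcg2* and *Cyp4f14* also passed at a threshold of 0.05 without the block. With IL-22 the block also moved *Por* and *Aldh9a1* past the threshold in both genotypes. It did the same for *Sult1c2* in *Atg16l1* fl/fl and for *Akr1a1*, *Akr1c13* and *Akr1c19* in *Atg16l1* ΔIEC organoids. With at most 5574860 counts per culture, members with few counts, such as *Cyp1a1*, could not be compared closely, and 2 lines per genotype limit every genotype comparison.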
